A study of Mus musculus with 60 samples.

Results

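Genes that control the loss of muscle mass, 9 in all and centred on the FOXO transcription factors, were followed in gastrocnemius muscle, heart and neocortex of ageing mice. The genes are Fbxo32, Trim63, Foxo1, Foxo3, Foxo4, Klf15, Mstn, Cebpb and Cebpd. All probe sets carrying 1 of these symbols in the probe-to-gene table were taken. This gave 18 probe sets for 8 of the 9 genes, among 18193 genes measured by probe sets with a single symbol. No probe set carries the symbol of Mstn (myostatin, the secreted inhibitor of muscle growth) in that table, and Mstn was not analysed here. The mice were males of the B6C3F1 hybrid background, kept in individual cages. Old CR mice were 30 months old and had eaten a calorie-restricted diet from 14 months of age, labelled as a 40% restriction, although the study's own text describes a milder ration. Old resveratrol mice were of the same age and had received the AIN93M control diet with resveratrol at 4.9 mg per kg bodyweight from 14 months. Old control mice were 30 months old and young control mice 5 months old, and both ate the control diet alone. Each group had 5 arrays per tissue, 60 in all, labelled as biological replicates.

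FOXO proteins are transcription factors held outside the nucleus when insulin or IGF signalling activates Akt, and they enter the nucleus when that signal falls, as in fasting. In skeletal muscle and heart they switch on Fbxo32 (atrogin-1) and Trim63 (MuRF1), ubiquitin ligases that mark muscle proteins for the proteasome. Klf15, Cebpb and Cebpd encode transcription factors that respond to glucocorticoids, and KLF15 drives the breakdown of amino acids.

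The upstream sequence of Trim63 is shown because it was the only promoter of the listed genes that held the FOXO element searched for here. RefSeq promoters (GRCm38.p6) were at hand for 6 of the 9 genes, Mstn, Cebpb, Foxo1, Trim63, Klf15 and Foxo3. On that build Fbxo32 lies at chr15:58175879-58214892, Foxo1 at chr3:52268337-52350109, Foxo3 at chr10:42181845-42276695 and Foxo4 at chrX:101254261-101260873, Klf15 at chr6:90461043-90491803, Cebpb at chr2:167688915-167690432 and Cebpd at chr16:15887286-15889545. Trim63 lies on the plus strand at chr4:134315120-134329629, and the 250 bases before its start, chr4:134314870-134315119, read as follows, with the element in capitals.
Trim63: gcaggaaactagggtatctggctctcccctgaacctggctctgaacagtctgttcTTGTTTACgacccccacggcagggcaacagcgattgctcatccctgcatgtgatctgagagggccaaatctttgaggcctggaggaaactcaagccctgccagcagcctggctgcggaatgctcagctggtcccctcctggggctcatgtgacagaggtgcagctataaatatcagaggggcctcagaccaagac
The letters TTGTTTAC stood 195 to 188 bases before the start on the strand of the gene. Searched on both strands, they occurred in 403 of 32851 promoters of the same length (1.23%) and in 1 of the 6 promoters of listed genes. The C/EBP letters TTGCNNAA occurred in 10.8% of all promoters, and the full palindromic glucocorticoid receptor element in 0.00913%. No exact match to either was found in the 6 promoters, and near matches were not searched for. The Trim63 sequence above nevertheless held a near match to the glucocorticoid receptor element, ending on the leading base of the FOXO element. It differed from the full element at its leading base only. The search therefore does not show that this promoter lacks such an element. A match of letters is not a measured binding site.

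Signals are linear fluorescence values that the authors had scaled to a common mean on every array, so a signal compares 1 probe set between arrays and not different genes with each other. Each gene is represented by the probe set that was brightest over all 60 arrays, called its brightest probe set below. Changes are log2 differences between group means, given with their standard errors (SE). A gene is said to have risen or fallen where limma's test across all genes of a tissue gave an adjusted p under 0.05. The labelled tissues carried their own markers, with Myh4 at 35042 to 78502 in all gastrocnemius arrays, Myh6 at 63356 to 118476 in all hearts and Snap25 at 20475 to 26136 in all neocortex arrays. In gastrocnemius, old CR replicate 2, old control replicate 1 and young control replicate 4 stood apart from the other arrays, as did young control replicate 1 in heart. The results below are given with and without them where that changes a call. The added poly-A control RNAs also differed between muscle groups, with mean log2 signals of 9.63 ± 0.49 in old CR and 9.68 ± 0.20 in old resveratrol arrays, against 6.55 ± 0.45 in old control arrays (SD, n = 5 each; exact permutation test, two-sided, adjusted p = 0.0204 for each diet). The 3' minus 5' signal of the GAPDH control, a measure of RNA integrity, averaged −0.27 ± 0.03 in old CR and −0.27 ± 0.03 in old resveratrol muscles, against 0.78 ± 1.40 in old control muscles, of which the highest had 3.23 (log2 scale; SD, n = 5 each; same exact test, adjusted p = 0.0204 for each diet). The part of these differences in the results was not tested.

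In gastrocnemius, CR mice had higher signals than old controls for the ligase Trim63, for all 3 Foxo genes and for Cebpd. Of the 8 genes 5 rose and 1 fell, in a comparison in which 31.2% of all genes tested changed. The median change was 0.88 for the 8 genes and 0.10 for all genes, and the groups did not overlap for 3 of the 8 genes and for 18.8% of all. Trim63 had signals of 20222, 25383, 26422, 24496 and 22691 in old CR muscles, against 7291, 9132, 9784, 12910 and 14059 in old control muscles. Every CR muscle was above every control muscle. The change was 1.20 ± 0.15 (limma, adjusted p = 9.50e-06).

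Foxo1, which encodes a FOXO protein known to restrain muscle mass, had signals of 3323, 1302, 2727, 2802 and 2787 in old CR muscles and 1014, 619, 715, 916 and 1064 in old control muscles. The groups did not overlap, although CR replicate 2 lay far below the other CR muscles. The rise was 1.54 ± 0.23 (adjusted p = 5.36e-05), and all 3 Foxo1 probe sets that passed the filter on low signal rose, by 1.54, 1.63 and 1.11 (32.8% of all probe sets changed). Foxo4 had 3186, 1579, 2890, 3129 and 2838 in old CR muscles, against 982, 1029, 1439, 1592 and 1241 in old control muscles. Only CR replicate 2 reached into the control range. Foxo4 rose by 1.10 ± 0.18 (adjusted p = 0.000127), while its dimmer probe set gave 0.54 and did not pass (adjusted p = 0.26). Foxo3 rose less, by 0.65 ± 0.21 (adjusted p = 0.0232), and a further Foxo3 probe set rose by 0.69. The Foxo3 call was lost without old CR replicate 1 or 5, or without old control replicate 3 or 5 (adjusted p 0.0553 to 0.0723). It was also lost with the methods' t-test, the gene by gene test the study names (adjusted p = 0.128 on log2 signal), with only the 2 groups in the fit (adjusted p = 0.0651) and with averaged probe sets (adjusted p = 0.142).

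Among the glucocorticoid-responsive factors, only Cebpd rose under CR. Its signals were 1439, 1523, 2607, 1466 and 1602 in old CR muscles and 486, 558, 539, 659 and 827 in old control muscles. The lowest CR muscle was well above the highest control. The rise was 1.48 ± 0.26 (adjusted p = 0.000258). Its dim second probe set, 1456605_at, averaged 353 ± 81.8 in old CR and 71.3 ± 37.3 in old control muscles (SD, n = 5 each). No size is given for it. Its old control log2 mean, 5.72, lies under the filter's 6.12, with old control replicate 1 at a signal of 7.1. The probe set passed the filter through the groups in which it was higher. Klf15 averaged 1099 ± 285 in old CR and 799 ± 127 in old control muscles (SD, n = 5 each), a difference of 0.43 that did not pass (adjusted p = 0.08) but passed without CR replicate 4 (0.57, adjusted p = 0.0211). Cebpb averaged 2595 ± 1140 in old CR and 2657 ± 611 in old control muscles (adjusted p = 0.673). CR replicate 2, at 575, was the lowest of the 20 muscle arrays for Cebpb, and the other 4 CR muscles lay between 2846 and 3271.

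Fbxo32 was the exception by its brightest probe set over all arrays, 1435265_at, and its probe sets disagreed. That probe set had 3786, 1208, 2732, 3514 and 3137 in old CR muscles and 3486, 3553, 4540, 4532 and 5983 in old control muscles. Of the CR muscles 2 reached the control range, and the change of −0.69 ± 0.26 just passed (adjusted p = 0.049). A second Fbxo32 probe set, 1448747_at, had 5659, 2376, 5885, 6820 and 6022 in old CR muscles and 937, 1539, 2440, 3886 and 4587 in old control muscles. It moved the opposite way and rose by 1.14 (adjusted p = 0.0175, over all probe sets). Its log2 means were 12.30 in old CR, 11.98 in old resveratrol, 11.16 in old control and 12.28 in young control muscles. Those of 1435265_at were 11.39, 11.80, 12.08 and 11.80 in the same order. In this tissue 1448747_at was thus the brighter of the pair in all groups but old controls. The third, 1417522_at, gave −0.18 and did not pass (adjusted p = 0.722). The call of the brightest probe set was lost in 14 of the 20 fits that left out 1 array, with an adjusted p of up to 0.145 (without CR replicate 2), and under 7 of the other settings tried. The 3 probe sets thus gave no common direction for Fbxo32 mRNA in CR muscle.

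**Figure D1:**
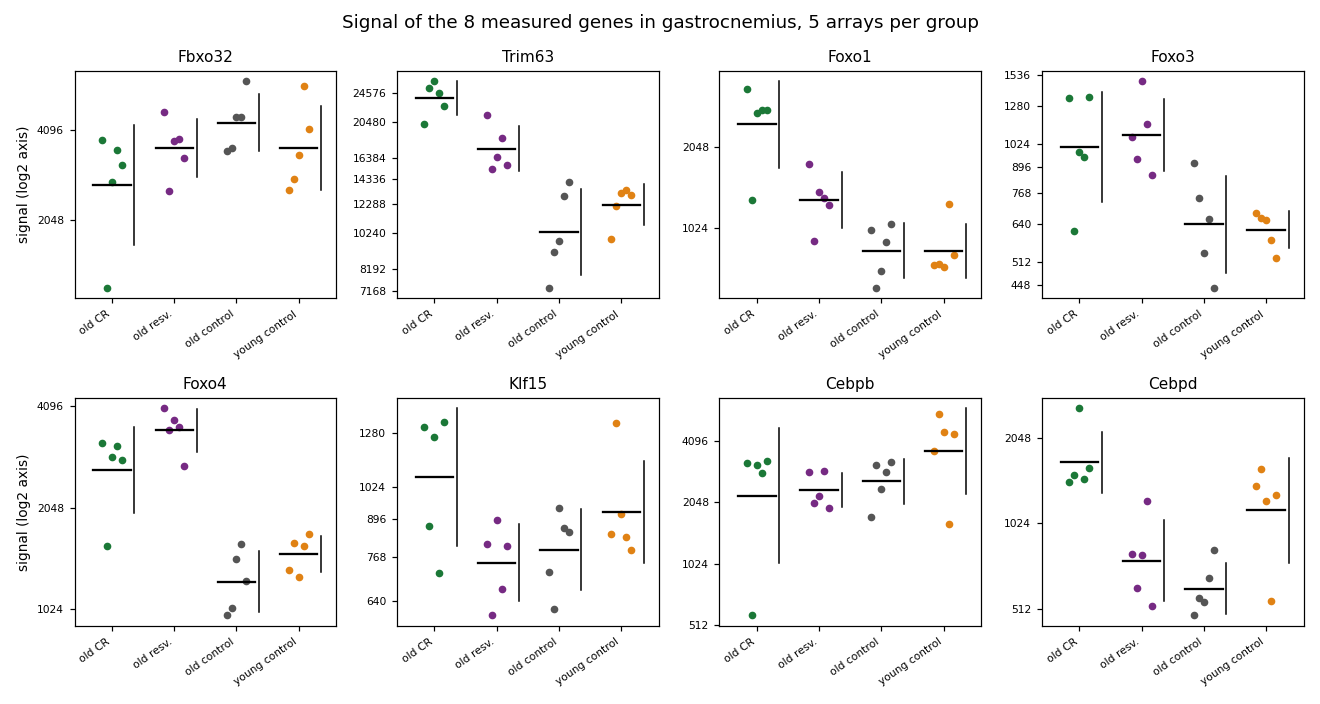
Signal in gastrocnemius of the probe set of each of the 8 genes that was brightest over all 60 arrays. The axis is log2, with 1 point per array and the groups in the order old CR, old resveratrol, old control and young control. The horizontal line is the mean of the log2 values and the vertical line 1 SD on either side of it; Trim63 and Cebpd lie above all old controls in every CR muscle, and Foxo4 in every resveratrol muscle.

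**Figure D2:**
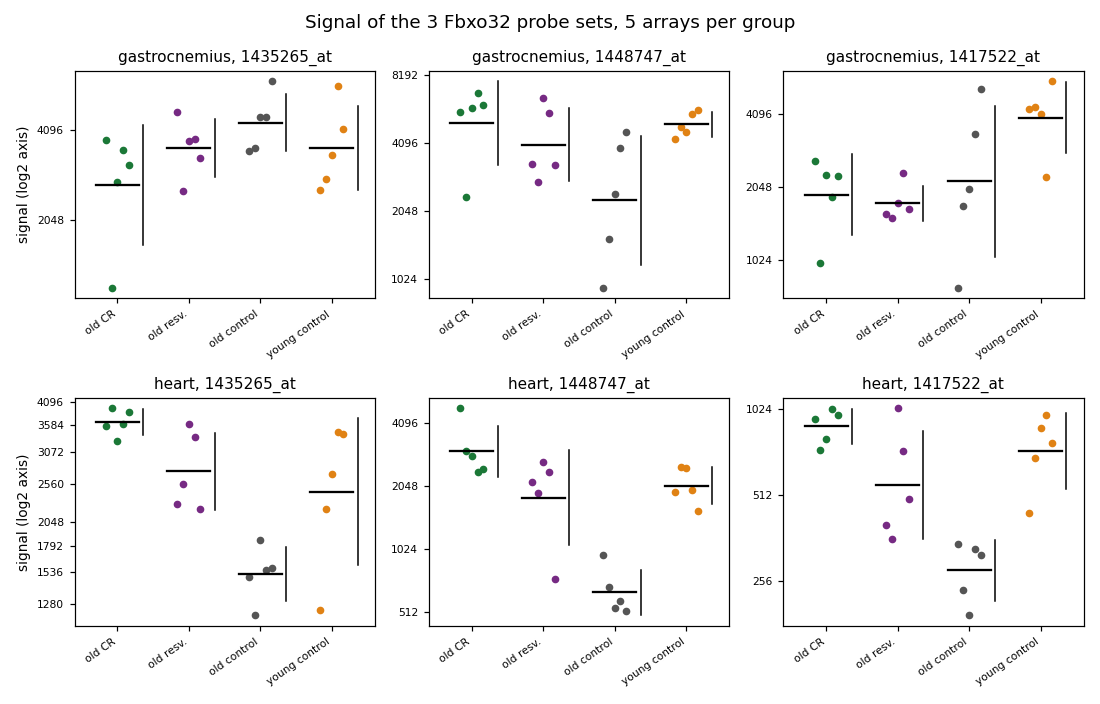
Signal of the 3 Fbxo32 probe sets in gastrocnemius and heart, on a log2 axis, with 1 point per array, the mean of the log2 values and 1 SD. In heart all 3 are higher in CR than in old control mice, whereas in gastrocnemius the CR change is −0.69, 1.14 and −0.18 for the 3 probe sets.

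Under resveratrol 3 of the 8 genes rose in gastrocnemius and none fell, where 18.7% of all genes changed. The median change was 0.47 for the 8 genes and 0.07 for all genes, and 2 of the 8 and 17.98% of all genes did not overlap. Foxo4 had 4033, 3487, 3714, 3551 and 2718 in old resveratrol muscles, against the old control values above, whose highest was 1592. The groups were clearly separate, and Foxo4 rose by 1.49 ± 0.18 (adjusted p = 1.18e-05). Trim63 had 21424, 15248, 16447, 18485 and 15718 in old resveratrol muscles, all above the highest old control at 14059. It rose by 0.74 ± 0.15 (adjusted p = 0.00173). Foxo3 averaged 1100 ± 243 in old resveratrol and 661 ± 184 in old control muscles (SD, n = 5 each) and rose by 0.75 ± 0.21 (adjusted p = 0.0152), as did its second probe set (0.94). The Foxo3 call was lost without old control replicate 5 or resveratrol replicate 3 (adjusted p = 0.0515 and 0.0505). Foxo1 averaged 1329 ± 306 in old resveratrol and 866 ± 192 in old control muscles, a difference of 0.62 ± 0.23 that just missed the threshold (adjusted p = 0.0616) and passed in 3 of the 20 fits without 1 array, those without CR replicate 2, resveratrol replicate 2 or young control replicate 4 (adjusted p 0.0147 to 0.0429). Without the 3 arrays that stood apart it was 0.68 and passed (adjusted p = 0.00261). Cebpd by its brightest probe set (0.33), Klf15 (−0.08), Cebpb (−0.14) and the brightest Fbxo32 probe set (−0.28) did not pass, nor did the other Fbxo32 probe sets (0.82 and −0.30). The second Cebpd probe set, 1456605_at, averaged 207 ± 48.6 in old resveratrol and 71.3 ± 37.3 in old control muscles (SD, n = 5 each). No size is given for it here either, since its old control level lies under the filter. Cebpd with averaged probe sets gave 1.14 (adjusted p = 0.0141), a value that includes this probe set and shares its limit.

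Set against resveratrol, Cebpd was higher under CR. Its CR values, 1439 to 2607, lay above all resveratrol values, 525 to 1233, a difference of 1.15 ± 0.26 (adjusted p = 0.0391), where 0.561% of all genes differed between the diets. This call was lost in 12 of the 20 fits without 1 array (adjusted p of up to 0.127, without CR replicate 3). Foxo1 was 0.93 ± 0.23 higher under CR (adjusted p = 0.0626), passing without CR replicate 2 (1.16, adjusted p = 0.00532) or young control replicate 4 (0.93, adjusted p = 0.0425), and without the 3 arrays that stood apart (1.16, adjusted p = 0.00149). Trim63 differed by 0.45 (adjusted p = 0.184) and Klf15 by 0.51 (adjusted p = 0.224). Both diets were compared with the same old control muscles.

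With age none of the 8 genes passed limma's adjusted threshold in gastrocnemius, where 0.429% of all genes did. Cebpd was the 1 gene with an unadjusted p under 0.05, a threshold for which the share of all genes is not given. The methods' t-test also called none after adjustment. Cebpd had 486, 558, 539, 659 and 827 in old control muscles and 1393, 1597, 1224, 545 and 1293 in young control muscles. Young replicate 4 alone lay within the old range. The difference of −0.92 ± 0.26 did not pass (adjusted p = 0.121), and without young control replicate 4 it was −1.18 and passed (adjusted p = 0.00606). Cebpb averaged 2657 ± 611 in old and 3938 ± 1462 in young control muscles (SD, n = 5 each; −0.49, adjusted p = 0.594), with young replicate 4 again lowest at 1606. Without the 3 muscle arrays that stood apart, Cebpd fell by 1.11 (adjusted p = 0.00689) and Cebpb by 0.64 (adjusted p = 0.0129). Trim63 averaged 10635 ± 2787 in old and 12323 ± 1447 in young control muscles, and Foxo1 866 ± 192 in old and 866 ± 224 in young. The 3 Fbxo32 probe sets again parted, with changes of 0.28, −1.12 and −0.87 that did not pass.

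Muscle is a mixture of cells, and in such bulk RNA fewer cells of a type and less RNA per cell cannot be told apart. The summed signal of 6 macrophage markers ran from 6410 to 11871 in old CR, 6776 to 14077 in old resveratrol, 5224 to 6928 in old control and 3721 to 4710 in young control muscles. Of these markers 2 of 6 rose under each diet, where 31.2% of all genes changed under CR and 18.7% under resveratrol. The summed signal of 4 neutrophil markers was 1163 to 2157 in old CR muscles, 484 to 2045 in old resveratrol muscles and 283 to 829.6 in old control muscles. The 4 adipocyte markers that could be matched summed to 101761 in CR replicate 2, against 26912 to 53692 in the other CR muscles, and none of the 4 passed in any muscle comparison. The part of these cells in the results was not tested. Without the 3 arrays that stood apart, 5 of the 8 genes again rose and 1 fell under CR.

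In heart, both ligases, Foxo3, Klf15 and Cebpd rose under CR, and Foxo4 fell. This was 5 genes risen and 1 fallen of 8, where 21.99% of all genes changed and 7.94% rose. The median change was 0.55 for the 8 genes and 0.00 for all genes, and the groups did not overlap for 5 of the 8 genes and for 19.04% of all. Fbxo32 had 3563, 3951, 3275, 3606 and 3875 in old CR hearts and 1492, 1201, 1855, 1560 and 1577 in old control hearts. The groups were far apart. Fbxo32 rose by 1.26 ± 0.20 (adjusted p = 5.24e-05), and here its other 2 probe sets moved the same way, by 2.24 (1448747_at, adjusted p = 1.03e-06) and 1.67 (1417522_at, adjusted p = 2.24e-05), where 20.4% of all probe sets changed. Trim63 had 6829, 7569, 8027, 7354 and 7975 in old CR hearts and 5335, 5141, 6402, 4833 and 5472 in old control hearts. It rose by 0.48 ± 0.13 (adjusted p = 0.008), again without overlap. Klf15 had 1547, 1405, 1262, 1606 and 1746 in old CR hearts and 936, 785, 1062, 860.0 and 1190 in old control hearts, and rose by 0.65 ± 0.19 (adjusted p = 0.0132).

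The Foxo genes went separate ways in the heart under CR. Foxo3 had 2270, 2340, 2189, 2202 and 2306 in old CR hearts, above the old control hearts at 1231, 929, 1408, 2092 and 2096. The CR hearts were nearly identical to each other and the controls spread widely. The rise of 0.61 ± 0.18 passed (adjusted p = 0.0157), but not without old control replicate 2 (0.45, adjusted p = 0.0621). Foxo4 fell, with 792, 567, 592, 726 and 774 in old CR hearts and 959, 823, 1054, 1026 and 992 in old control hearts. All CR hearts were below all controls, and the change was −0.50 ± 0.13 (adjusted p = 0.00793). The second Foxo4 probe set was under the filter in heart, and averaging it in gave 0.42 (adjusted p = 0.485). Foxo1 averaged 799 ± 109 in old CR and 823 ± 60.9 in old control hearts (SD, n = 5 each; adjusted p = 0.869).

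Cebpd averaged 1513 ± 343 in old CR and 921 ± 245 in old control hearts (SD, n = 5 each) and rose by 0.72 ± 0.21 (adjusted p = 0.0143). Its dim second probe set, 1456605_at, averaged 84.1 ± 101 in old CR and 148 ± 32.2 in old control hearts and did not pass (adjusted p = 0.154). No size is given for it, since its old CR log2 mean, 5.66, lies under the filter's 5.92. The probe set passed the filter through the groups in which it was higher. The mean of both probe sets gave −0.39 (adjusted p = 0.527), a value that shares this limit. Cebpb averaged 2082 ± 562 in old CR and 1781 ± 223 in old control hearts and did not pass (adjusted p = 0.506).

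Under resveratrol both ligases rose in heart and Foxo1 and Foxo4 fell, 4 of 8 genes where 17.5% of all genes changed. The median change was 0.22 for the 8 genes and 0.01 for all genes, and 2 of the 8 genes and 15.1% of all did not overlap. Fbxo32 had 2281, 2559, 3610, 3357 and 2213 in old resveratrol hearts, all above the old control hearts given above, whose highest was 1855. It rose by 0.85 ± 0.20 (adjusted p = 0.0036), and its other 2 probe sets rose as well (adjusted p = 0.000208 and 0.0062, where 15.2% of all probe sets changed). Trim63 averaged 7216 ± 1330 in old resveratrol and 5437 ± 591 in old control hearts (SD, n = 5 each), with overlap, and rose by 0.39 ± 0.13 (adjusted p = 0.032). Foxo4 averaged 602 ± 103 in old resveratrol and 971 ± 90.2 in old control hearts and fell by 0.70 (SE 0.13, adjusted p = 0.00055), without overlap. Foxo1 had 563, 462, 857, 497 and 568 in old resveratrol hearts and 746, 849, 777, 897 and 849 in old control hearts. Only replicate 3 reached the control range. The change was −0.51 ± 0.17 (adjusted p = 0.0357), but its other probe sets gave −0.19 and −0.01 and did not pass. The calls for Trim63 and Foxo1 were each lost in 7 of the 20 fits without 1 array, with adjusted p of up to 0.0975 for Trim63 (without resveratrol replicate 4) and 0.104 for Foxo1 (without resveratrol replicate 2). Foxo3 (0.12) and Cebpd (0.50) did not pass, nor did Klf15 (0.32), which passed without resveratrol replicate 2 (0.52, adjusted p = 0.0287).

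Between CR and resveratrol none of the 8 genes passed limma's adjusted threshold in heart, where 3.997% of all genes did. Foxo1, Foxo3 and Cebpb had an unadjusted p under 0.05, a threshold for which the share of all genes is not given. The methods' t-test called none after adjustment. Foxo1 passed without resveratrol replicate 3 (0.61 higher under CR, adjusted p = 0.0363).

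With age both ligases and Klf15 fell in heart, 3 of 8 genes where 10.8% of all genes changed and 3.79% fell. The groups did not overlap for 2 of the 8 genes and for 9.29% of all. Fbxo32 had 1492, 1201, 1855, 1560 and 1577 in old control hearts and 1236, 2212, 2710, 3453 and 3417 in young control hearts. Young replicate 1 alone lay in the old range. The change was −0.68 ± 0.20 (adjusted p = 0.0269), and the other 2 probe sets fell further, by 1.70 (adjusted p = 7.02e-05) and 1.38 (adjusted p = 0.000431), where 11.99% of all probe sets changed. Klf15 averaged 967 ± 161 in old and 1546 ± 265 in young control hearts (SD, n = 5 each) and fell by 0.68 (SE 0.19, adjusted p = 0.0205), without overlap. Trim63 averaged 5437 ± 591 in old and 7588 ± 1349 in young control hearts and fell by 0.47 (SE 0.13, adjusted p = 0.0189). These were also genes that rose under CR, but the old control hearts are shared by both comparisons. The calls were lost in 5 of the 20 fits without 1 array for Fbxo32, 3 for Klf15 and 2 for Trim63, with adjusted p of up to 0.0785 (Fbxo32, without young control replicate 4), 0.0649 (Klf15, without young control replicate 2) and 0.0548 (Trim63, without old control replicate 4). Without young control replicate 1, which stood apart, the changes were −0.93, −0.76 and −0.59 for Fbxo32, Klf15 and Trim63 and all passed. Foxo3 averaged 1551 ± 524 in old and 1065 ± 189.8 in young control hearts (0.49, adjusted p = 0.08) and passed without old control replicate 2 (0.66, adjusted p = 0.0136).

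Other measures also moved with the groups in heart. The summed macrophage signal ran from 15325 to 19253 in old CR and 13291 to 19856 in old resveratrol hearts, against 9272 to 12786 in old control hearts, and 5 of 6 macrophage markers rose under each diet, where 21.99% of all genes changed under CR and 17.5% under resveratrol. The summed signal of 4 blood and liver markers ran from 7173 to 25464 in old CR and 3503 to 10725 in old resveratrol hearts, against 1893 to 3100 in old control hearts. Of the 3 that passed the filter, 3 rose under CR (median 3.25) and 2 under resveratrol. Most of the blood and liver signal was Alas2, with a median of 5335 over all hearts, against 176 for Alb, 67.8 for Apoa1 and 24.2 for Hba-a1. The adipocyte sum ran from 42917 to 50827 in old CR and 38344 to 53409 in old resveratrol hearts, against 26282 to 36044 in old control hearts. Most of it was Fabp4, with a median of 40033 over all hearts, against 1235 for Adipoq, 204 for Cidec and 26.1 for Lep. The 3' minus 5' signal of the actin control, a measure of RNA integrity, averaged 0.79 in old CR and 0.82 in old resveratrol hearts, 1.39 in old control hearts and 0.72 in young control hearts (log2 scale). It was 0.60 lower under CR, 0.57 lower under resveratrol and 0.67 higher with age (exact permutation test, two-sided, n = 5 each, adjusted p = 0.0204 for each). The same measure of the GAPDH control averaged −0.26 in old CR and −0.22 in old resveratrol hearts, 0.09 in old control hearts and −0.20 in young control hearts, and differed in each of these comparisons as well (adjusted p = 0.0204 for each). The part of these measures in the results for heart was not tested.

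**Figure D3:**
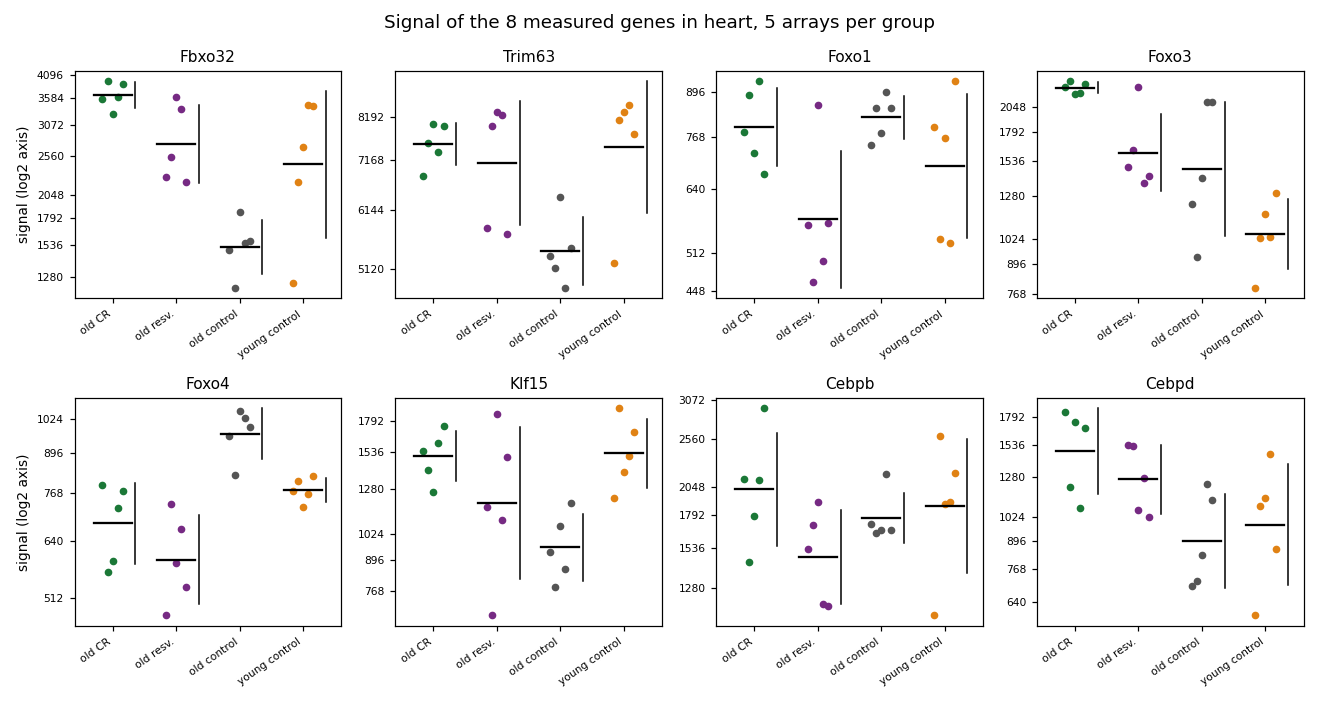
Signal of the brightest probe set of each of the 8 genes in heart, on a log2 axis, with 1 point per array and the groups in the order old CR, old resveratrol, old control and young control. Lines give the mean of the log2 values and 1 SD; the old control mean lies lowest for Fbxo32 and Klf15 and highest for Foxo4.

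Muscle and heart responded differently for some of the genes, and which ones depended on the probe sets used. The difference between tissues in the change of a gene was tested over 12084 genes, and under CR it passed for 4 of the 8 genes by their brightest probe sets, where it passed for 19.6% of all. Foxo4 (1.60 ± 0.22, adjusted p = 1.59e-06) and Foxo1 (1.59 ± 0.29, adjusted p = 0.000123) changed upward in gastrocnemius relative to heart. Trim63 rose in both tissues and by 0.72 ± 0.20 more in gastrocnemius (adjusted p = 0.00987). Fbxo32 went the other way, with −1.95 ± 0.35 (adjusted p = 9.09e-05). Under resveratrol Foxo4 (2.19 ± 0.22, adjusted p = 8.40e-09), Foxo1 (1.13 ± 0.29, adjusted p = 0.00595) and Fbxo32 (−1.13 ± 0.35, adjusted p = 0.022) differed, where 15.4% of all genes did. With age none of the 8 passed in limma, against 2.66% of all genes at the adjusted threshold. Fbxo32, Foxo4 and Cebpd had an unadjusted p under 0.05, for which the share of all genes is not given. Of these Fbxo32 passed without heart young control replicate 1 (adjusted p = 0.0335) and Cebpd without gastrocnemius young control replicate 4 (adjusted p = 0.0436), arrays that stood apart. When every probe set of a gene was averaged in place of using the brightest, the differences of Foxo1 and Foxo4 under CR were 0.72 and 0.40. They no longer passed (adjusted p = 0.134 and 0.627). Both averages take in a probe set under the filter, 1456529_at of Foxo1 in both tissues and 1422149_at of Foxo4 in heart. None of the 3 differences under resveratrol passed with averaged probe sets, while that of Fbxo32 under CR still passed (adjusted p = 0.00127). The difference of Cebpd under CR was 0.76 by the brightest probe set (adjusted p = 0.128). With averaged probe sets it was 2.49 and passed (adjusted p = 0.000597). That value includes 1456605_at, whose log2 mean lay under the filter in old control gastrocnemius (5.72, filter 6.12) and in old CR heart (5.66, filter 5.92). It therefore shares the limit given above for this probe set. The difference of Trim63 was lost with quantile normalization (adjusted p = 0.0668).

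**Figure D4:**
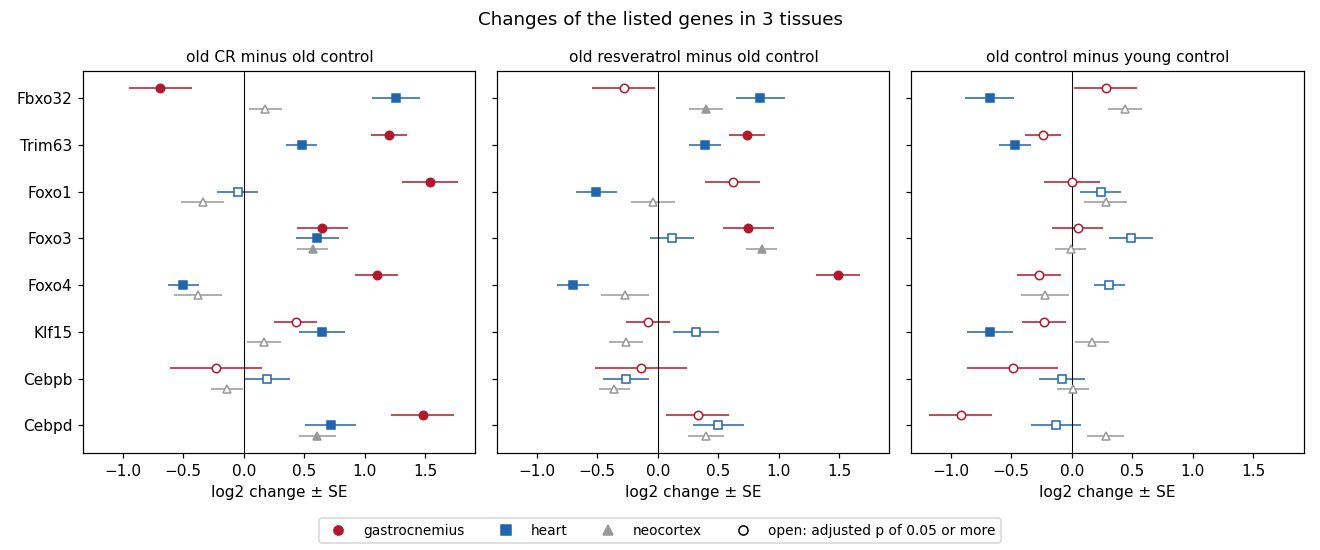
Change of each of the 8 genes under CR, under resveratrol and with age (log2 scale, with SE), in gastrocnemius (red circles), heart (blue squares) and neocortex (grey triangles). Filled symbols passed the adjusted threshold of 0.05; Foxo4 under resveratrol stands at 1.49 in gastrocnemius and −0.70 in heart, and Fbxo32 under CR at −0.69 and 1.26.

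In neocortex Trim63 was at the level of background, with signals of 1.89 to 46.5, and under the filter. The other 7 genes were tested. Under CR Foxo3 and Cebpd rose and none fell, where 30.6% of all genes changed. Foxo3 had 644, 763, 852, 666 and 692 in old CR cortices and 591, 384, 509, 487 and 477 in old control cortices (0.57 ± 0.13, adjusted p = 0.00236). Cebpd had 334, 364, 328, 389 and 278 in old CR and 191, 218, 231, 275 and 199 in old control cortices (0.61 ± 0.15, adjusted p = 0.0045). For Foxo3 the lowest CR cortex, 644, stood just above the highest control, 591, and for Cebpd 278 stood just above 275. The share of all genes without overlap is not given for neocortex. Under resveratrol Foxo3 rose by 0.86 ± 0.13 (adjusted p = 5.59e-05) and Fbxo32 by 0.40 ± 0.14 (adjusted p = 0.0374), where 26.2% of all genes changed. The second Foxo3 probe set, 1434832_at, gave −0.13 under CR and 0.17 under resveratrol in neocortex and did not pass. The Fbxo32 call was lost in 7 of the 20 fits without 1 array (adjusted p of up to 0.119, without resveratrol replicate 4). Cebpb (−0.36, adjusted p = 0.0504) and Cebpd (0.40, adjusted p = 0.0556) just missed the threshold under resveratrol, and passed in 6 and 4 of these 20 fits. Klf15 was 0.43 ± 0.14 higher under CR than under resveratrol (adjusted p = 0.0492, where 9.28% of all genes differed), a call lost in 14 of 20 such fits (adjusted p of up to 0.135, without resveratrol replicate 1). With age none of the 7 passed limma's adjusted threshold, where 1.46% of all genes did, and the methods' t-test called none. An unadjusted p under 0.05 was found for 1 gene, and the share of all genes at that threshold is not given. Fbxo32 nevertheless had 382, 468, 439, 499 and 387 in old control and 301, 282, 338, 382 and 299.6 in young control cortices (0.44, adjusted p = 0.127). Its probe set 1448747_at went the other way with age, with log2 means of 7.77 in old resveratrol, 7.71 in old control and 7.93 in young control cortices. Those of 1417522_at were 7.15, 6.93 and 6.63 in the same order. The 3' minus 5' signal of the actin control averaged 0.71 in old CR and 0.89 in old resveratrol cortices, against 0.55 in old control cortices (log2 scale; exact permutation test, two-sided, n = 5 each, adjusted p = 0.0204 for each diet), and its part in these results was not tested.

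By their brightest probe sets, Foxo3 and Cebpd rose under CR in all 3 tissues. Over all groups, the level of each gene was compared between tissues, where 70.8% of all genes differed between gastrocnemius and heart, 86.4% between gastrocnemius and neocortex and 85.1% between heart and neocortex. All 8 were higher in gastrocnemius and in heart than in neocortex, although Foxo3 averaged over its probe sets differed by −0.05 between gastrocnemius and neocortex (adjusted p = 0.713). Foxo4 was 2.73 times higher in gastrocnemius than in heart (log2 difference 1.45 ± 0.09), Trim63 2.21 times and Foxo1 1.73 times. These folds pool the diet groups with the controls. On the log2 scale Foxo4 averaged 11.76 in gastrocnemius and 9.22 in heart of old resveratrol mice, but 10.27 and 9.92 in the same tissues of old control mice, and Foxo1 averaged 9.73 in gastrocnemius and 9.68 in heart of old controls. The levels within a single group were not tested. Foxo3 (log2 difference −0.93 ± 0.09) and Klf15 (−0.54 ± 0.09) were lower in gastrocnemius, and Cebpd, at −0.23 ± 0.11, did not pass (adjusted p = 0.0657). Fbxo32 had signals from 1208 to 5983 in gastrocnemius, 1201 to 3951 in heart and 282 to 731 in neocortex.

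The wider FOXO programme moved in both directions in muscle. Of 27 further genes known as FOXO targets in atrophy, 7 rose and 7 fell under CR (median −0.23, against 0.10 for all genes), 6 rose and 1 fell under resveratrol, and 1 rose and 2 fell with age, where 31.2%, 18.7% and 0.429% of all genes changed under CR, under resveratrol and with age. Ddit4, an inhibitor of mTORC1, averaged 6316 ± 2562 in old CR and 592 ± 53.5 in old control muscles (SD, n = 5 each) and rose by 3.34 (adjusted p = 1.95e-07). It rose by 1.72 under resveratrol. Pdk4, which shuts off pyruvate dehydrogenase when fat is burned, averaged 48625 ± 4378 in old CR and 6827 ± 5638 in old control muscles and rose by 3.29 (adjusted p = 7.22e-06) and by 1.94 under resveratrol. Irs2, an adaptor of the insulin receptor, averaged 35.5 ± 32.6 in old control, 256 ± 107 in young control and 237 ± 124 in old resveratrol muscles. It is counted above among the genes that fell with age and rose under resveratrol. No size or p-value is given for it, since its old control level lies under the filter's signal of 69.3. The gene passed the filter through the groups in which it was higher. Gadd45a, a stress gene, rose by 1.60 with age and Cdkn1b, a cell cycle inhibitor, fell by 1.06.

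Upstream genes of the pathway also moved both ways in muscle, where 31.2% of all genes changed under CR and 18.7% under resveratrol. Of 19 genes of the insulin and Akt control of FOXO, 2 rose and 6 fell under CR (median −0.35, against 0.10 for all genes) and 1 rose and 2 fell under resveratrol. Irs1, the other main adaptor, averaged 2620 ± 488 in old CR and 5801 ± 910.0 in old control muscles and fell by 1.15 (adjusted p = 5.63e-05), and by 0.67 under resveratrol. Ywhaz, a 14-3-3 protein of the family that holds FOXO in the cytoplasm, rose by 0.73 under CR and 0.88 under resveratrol. Of 17 genes of myostatin signalling tested, none rose and 4 fell under CR (median −0.06). The receptor gene Acvr2a fell by 0.99, Acvr2b fell by 1.93 and the signal transducer Smad3 by 0.80, while only Smad2 changed under resveratrol (−0.42). Of 8 C/EBP relatives and partners, 1 rose and 2 fell under CR (median −0.31). Among them Nr3c1, the gene of the glucocorticoid receptor, fell by 0.75 under CR and fell by 0.47 under resveratrol. Of 10 genes of amino acid breakdown linked to KLF15, 2 rose and 2 fell under CR (median 0.03). The transaminase gene Gpt2 rose by 0.97 and Got1 fell by 1.39 under CR, and they changed by 0.72 and −1.46 under resveratrol.

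In heart, 7 of 26 FOXO targets tested rose and 5 fell under CR (median 0.22, against 0.00 for all genes), 4 rose and 6 fell under resveratrol, and 5 rose and 4 fell with age, where 21.99%, 17.5% and 10.8% of all genes changed in these comparisons. Pdk4 averaged 43198 ± 5928 in old CR and 7808 ± 2324 in old control hearts and rose by 2.50 (adjusted p = 7.34e-06). Txnip, which restrains glucose uptake, rose by 1.92. Pik3ip1, an inhibitor of PI3 kinase, averaged 2501 ± 195 in old CR, 2200 ± 399 in old resveratrol, 1012 ± 239 in old control and 2066 ± 202 in young control hearts, with changes of 1.34, 1.14 and −1.06 for CR, resveratrol and age. Bnip3, a receptor for the removal of mitochondria, rose by 1.11 with age and Cited2 fell by 0.92. Of the 19 insulin and Akt genes 3 rose and 6 fell under CR (median −0.13), where 36.1% of all changed genes rose and the others fell, and 1 rose and 5 fell under resveratrol. Akt1 itself fell by 0.86 and 1.08, and Sgk1, a related kinase, rose by 0.98 and 0.78. Furin, the protease that cuts myostatin's precursor, fell by 0.86 under CR and 1.32 under resveratrol, and Dcn, a matrix protein that binds myostatin, rose by 0.86 and 0.66. Of the 10 amino acid genes 3 rose and 2 fell under CR. Klf9, another glucocorticoid-responsive factor, rose by 0.97, and Prodh, the first enzyme of proline breakdown, rose by 0.76 under CR and fell by 0.47 with age. In neocortex 7 of the 27 FOXO targets rose and 5 fell under CR, and 5 rose and 3 fell under resveratrol, where 30.6% and 26.2% of all genes changed.

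The genes whose pattern over the 8 group means of gastrocnemius and heart was most like that of each listed gene were found by the root mean square log2 distance among 12084 genes. For Fbxo32 these were Zfp708 (0.0807), Kcna2 (0.112) and Prrg1 (0.125), and for Trim63 they were AA388235 (0.0907), Coro2b (0.0911) and Chrm1 (0.0954). The nearest to Foxo3 were Cndp2 (0.0662), Ppip5k2 (0.0883) and Uvssa (0.0914), and to Klf15 Khdc3 (0.0487), Elmo1 (0.0648) and Hspbap1 (0.0692). Foxo1 was nearest to A530016L24Rik (0.087), Gpat3 (0.136) and Ciita (0.15), Foxo4 to Med1 (0.0896), Irx2 (0.105) and Tle3 (0.142), and Cebpd to Nol6 (0.12), Tfap2a (0.122) and Hpd (0.154). No listed gene was among the 3 nearest to another listed gene.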

How the data were processed

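Total RNA (5 ug, Trizol) of gastrocnemius, heart and neocortex was hybridised to 60 Affymetrix Mouse Genome 430 2.0 arrays. The deposited intensity values are linear signals computed by the authors with GCOS 1.2, and their 2% trimmed mean is 500.0 on every array. Depth does not apply to arrays, and the 5 arrays per group limit the precision. Values were log2 transformed after a floor of 1. Of 45101 probe sets, 64 controls, 932 with several symbols and 9160 with none were left out, and the brightest probe set over all arrays represented each of 18193 genes. A gene was tested where its mean reached the 40th percentile of the tissue (12831 genes in gastrocnemius, 13285 in heart and 13057 in neocortex). A single limma 3.58.1 model per tissue held the 4 groups (R 4.3.3, lmFit and eBayes with trend), with Benjamini-Hochberg adjustment over all genes tested. The fits were tested on simulated data. The difference between tissues was fitted over the 40 arrays of gastrocnemius and heart. The tissues were treated as taken from different mice, because the labels do not pair them. All listed genes are named, with up to 3 genes per pathway list, tissue and comparison that passed with the largest change, and the 3 nearest patterns per gene. The genes and lists were chosen with earlier results of these data known. Alternatives were quantile normalization, an added offset of 16, other filters, t-tests, fits of 2 groups, averaged probe sets, a replicate block and leaving out arrays.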

Additional observations from a re-analysis of the deposited data

Results flagged for a closer look

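Single arrays lay far from the other 4 of their group in 10 of the 96 groups of listed genes examined, where chance alone sets about 1 in 20 groups apart. In gastrocnemius, old CR replicate 2 was low for Fbxo32 (1208, others 2732 to 3786), Foxo1 (1302, others 2727 to 3323), Foxo4 (1579, others 2838 to 3186) and Cebpb (575, others 2846 to 3271). This array also had the highest adipocyte sum, 101761. Old CR replicate 3 was high for Cebpd (2607, others 1439 to 1602). Young control replicate 4 was high for Foxo1 (1262, others 740.1 to 821) and low for Cebpd (545, others 1224 to 1597), and young control replicate 2 was high for Klf15 (1329, others 790.1 to 914). In heart, young control replicate 1 was low for Trim63 (5224, others 7773 to 8493) and old control replicate 4 high for Cebpb (2176, others 1654 to 1725).

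The change of some genes differed between gastrocnemius and heart in the test of the difference itself. Under CR the gastrocnemius change minus the heart change was −1.95 for Fbxo32, 0.72 for Trim63, 1.59 for Foxo1 and 1.60 for Foxo4. Under resveratrol it was −1.13 for Fbxo32, 1.13 for Foxo1 and 2.19 for Foxo4.

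The added poly-A control RNAs, which no comparison above uses as a result, were higher on the log2 scale in old CR than old control gastrocnemius by 3.08, in old resveratrol than old control gastrocnemius by 3.13 and in old resveratrol than old control neocortex by 1.14 (exact permutation test, two-sided, n = 5 each, adjusted p = 0.0204 for each). The unadjusted p of this test was 0.00794 for each, the smallest that 5 against 5 arrays can give.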

How the results depend on the processing

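With 5 arrays per group, and signals whose genes and probe sets share arrays, small changes lie near the threshold. Over the changes of single listed genes, leaving out 1 array kept direction and call in 1742 cases, lost the call in 78, gained one in 20 and reversed none. The other settings kept 904, lost 52, gained 19 and reversed 5. All 5 reversals came with averaged probe sets. This setting mixes in dim probe sets for Foxo1, Foxo3, Foxo4 and Cebpd, whereas all 3 Fbxo32 probe sets passed the filter in gastrocnemius and disagreed there. The reversals were Fbxo32 under CR in gastrocnemius (0.09, adjusted p = 0.847), Foxo4 under CR and resveratrol in heart (0.42 and 0.13), Cebpd under CR in heart (−0.39) and Foxo1 under resveratrol in heart (0.00, adjusted p = 0.995). With the same setting the level of Cebpb in gastrocnemius minus heart was −0.03 and that of Foxo3 in gastrocnemius minus neocortex −0.05. Causes of changed counts were otherwise not tested.

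The number of listed genes that passed moved as follows. In gastrocnemius the CR count of 6 was 4 with the methods' t-test on log2 or unlogged signal, with only the 2 groups compared or with averaged probe sets, each without Fbxo32 and Foxo3, and the resveratrol count of 3 was 2 with either t-test, without Foxo3. The CR against resveratrol count of 1 was 2 with quantile normalization, 2 without the 3 arrays that stood apart, and 0 with the methods' t-test on log2 or unlogged signal, without the trend, with only the 2 groups compared or with averaged probe sets. The age count of 0 was 2 without those 3 arrays (an alternative chosen after seeing the data). In heart the age count of 3 was 2 with the t-test on log2 signal, 1 with that on unlogged signal (Foxo4, which rose) and 0 without the trend. The CR count of 6 was 4 with the t-test on log2 signal and 3 with averaged probe sets. The resveratrol count of 4 was 2 with either t-test or without the trend and 1 with averaged probe sets. The CR against resveratrol count of 0 was 1 with 2 groups only (Foxo3). In neocortex the CR count of 2 was 1 with averaged probe sets. The resveratrol count of 2 was 1 without a filter or with either t-test and 4 with a filter at the 60th percentile, and the CR against resveratrol count of 1 was 0 without a filter, with either t-test, without the trend, with 2 groups or with averaged probe sets. The count of genes whose resveratrol change differed between tissues, 3, was 0 with averaged probe sets.

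Leaving out 1 array gave 4 to 7 genes for CR, 2 to 4 for resveratrol, 0 to 1 for age and 0 to 2 for CR against resveratrol in gastrocnemius. In heart it gave 5 to 6, 2 to 4, 1 to 3 and 0 to 1 for the same comparisons, and in neocortex 2 in every fit, 1 to 3, 0 and 0 to 1. The difference between tissues kept 4 genes for CR and 3 for resveratrol and gave 0 to 2 for age.

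Within a tissue, same-numbered arrays of different groups did not deviate together (mean correlation 0.00 in gastrocnemius, 0.01 in heart and 0.01 in neocortex). Such arrays come from different mice, so this cannot show whether the numbers pair the tissues of 1 mouse. That was not tested. The fit with the replicate block gave 6 genes for CR, 4 for resveratrol, 0 for age and 1 for CR against resveratrol in gastrocnemius (Foxo1, 0.93, adjusted p = 0.0218, while Cebpd at 1.15 was lost with adjusted p = 0.0699), 6, 4, 3 and 0 in heart and 2, 3, 0 and 1 in neocortex.

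Counts over all genes moved with the settings as well. The 55 genes that changed with age in gastrocnemius were 2 with the t-test on log2 signal, 3 on unlogged signal, 102 with averaged probe sets and 717 without the 3 arrays. The 4001 genes under CR in gastrocnemius were 2654 with the t-test on log2 signal, the 2397 under resveratrol were 3910 without the 3 arrays, the 72 between the diets ranged from 0 (t-test on log2 signal) to 304 (without the 3 arrays), and the 1440 with age in heart were 653 with the t-test. With averaged probe sets the share of risen among changed genes in heart was 53.9% under CR (36.1% otherwise) and 41.5% with age (65.0% otherwise). Without a filter the median change of all genes under CR in gastrocnemius was 0.23.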
